A study of Mus musculus with 6 samples.

Results

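The collagen genes were followed through differentiation of C2C12 cells, a mouse myoblast line that stops dividing and fuses into myotubes when serum is lowered. Members were all genes whose symbol in the platform annotation has the form Col, a number, a and a number, read by probe sets with exactly 1 symbol. That gave 42 of the 18194 genes on the array, read by 82 probe sets, and each gene was represented by its probe set with the highest mean over the 6 arrays. They comprised 11 fibrillar chains, 6 chains of the basement membrane collagen, type IV, and 25 others. The time course held parental cells in growth medium (GM), directly after the switch to differentiation medium at confluence (day 0), and 2 and 4 days after that switch (day 2 and day 4). How much time or growth separated the GM array from day 0 is not given in the labels. A further pair came from stable lines at day 0, 1 carrying a hairpin vector against Rp58 (shRp58) and 1 a control that the labels call both a LacZ vector and a control hairpin. The serum was 10% fetal bovine in GM and 2% horse in differentiation medium, and the stable lines were transfected and then selected in G418 at 500 μg/ml for 2 weeks. Whether the stable lines were pools or clones is not given in the labels, so a difference between lines and a difference between clones cannot be told apart. With 1 array in each of the 6 groups, no difference below has a replicate error and none was tested.

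Collagens are extracellular proteins of 3 chains wound into a helix, in which each chain has regularly repeated glycine residues. Fibrillar chains such as those of types I, III and V build the fibres of connective tissue, and type IV forms the sheet-like network of the basement membrane that surrounds each muscle fibre. The remaining types decorate fibrils (the FACIT group, such as types IX, XII, XIV and XVI), form beaded filaments that link the basement membrane to the matrix around it (type VI), span the cell membrane (types XIII, XVII, XXIII and XXV) or carry a C-terminal fragment with its own activity (type XVIII, the source of endostatin). In human patients, mutations of the type VI chains cause Ullrich and Bethlem myopathy, and mutations of COL12A1 cause a related myopathy.

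All values are log2 units of the deposited RMA table, and differences are between 2 arrays. The median of all probe sets was 8.26 or 8.27 on the time-course arrays and 7.15 on both stable-line arrays, so the 2 sets of arrays were read apart. A value under its own array's median is called dim here, and a gene entered the counts of a set when it was not dim on at least 1 array of that set. By this filter 28 of 42 collagens entered the time-course counts, beside 12260 of all genes, and 29 entered the stable-line counts, beside 11876 of all genes. The muscle identity of the cultures was checked on 7 markers, none of them dim on all arrays of a set: Myod1 read between 12.45 and 13.03 over the course, Myf5, a factor of undifferentiated myoblasts, read 11.11 in GM, 11.21 at day 0, 10.35 at day 2 and 9.93 at day 4, and embryonic myosin Myh3 read 8.09 in GM, 12.27 at day 0, 14.40 at day 2 and 14.55 at day 4. Markers of bone (3 measured) and fat (3 measured) were dim on every array. Zbtb18, the current symbol of Rp58, stood at 11.16 in shRp58 cells and 11.69 in control-vector cells, a difference of -0.53.

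The 14 collagens that stayed dim on all 4 time-course arrays were the fibrillar Col11a1, Col11a2 and Col24a1, the type IV chains Col4a4 and Col4a6, and Col6a5, Col8a2, Col9a2, Col13a1, Col15a1, Col17a1, Col19a1, Col22a1 and Col26a1. Of these, Col11a2 and Col4a6 passed the filter in the stable lines, while Col20a1 passed only in the time course. Around the filter, the highest value of Col11a1 lay 0.13 under its array median, and those of Col10a1, Col9a3 and Col20a1 lay 0.01, 0.05 and 0.07 above it. RefSeq lists 44 mouse collagen genes of this naming form, and Col28a1 and Col6a6 had no probe set with 1 symbol here.

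Over the whole course, 8 of the 28 collagens (28.6%) spanned at least 2-fold between their lowest and highest array, beside 18.9% of all genes. They were Col1a1, Col4a5, Col6a1, Col6a2, Col6a3, Col8a1, Col12a1 and Col18a1. Of these, 5 were lowest in GM and 5 highest at day 4, while Col4a5, Col6a3 and Col18a1 were highest at day 0. The 3 classes were mixed in this respect: the span was at least 2-fold for 1 of 8 fibrillar, 1 of 4 basement membrane and 6 of 16 other collagens.

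**Figure D1:**
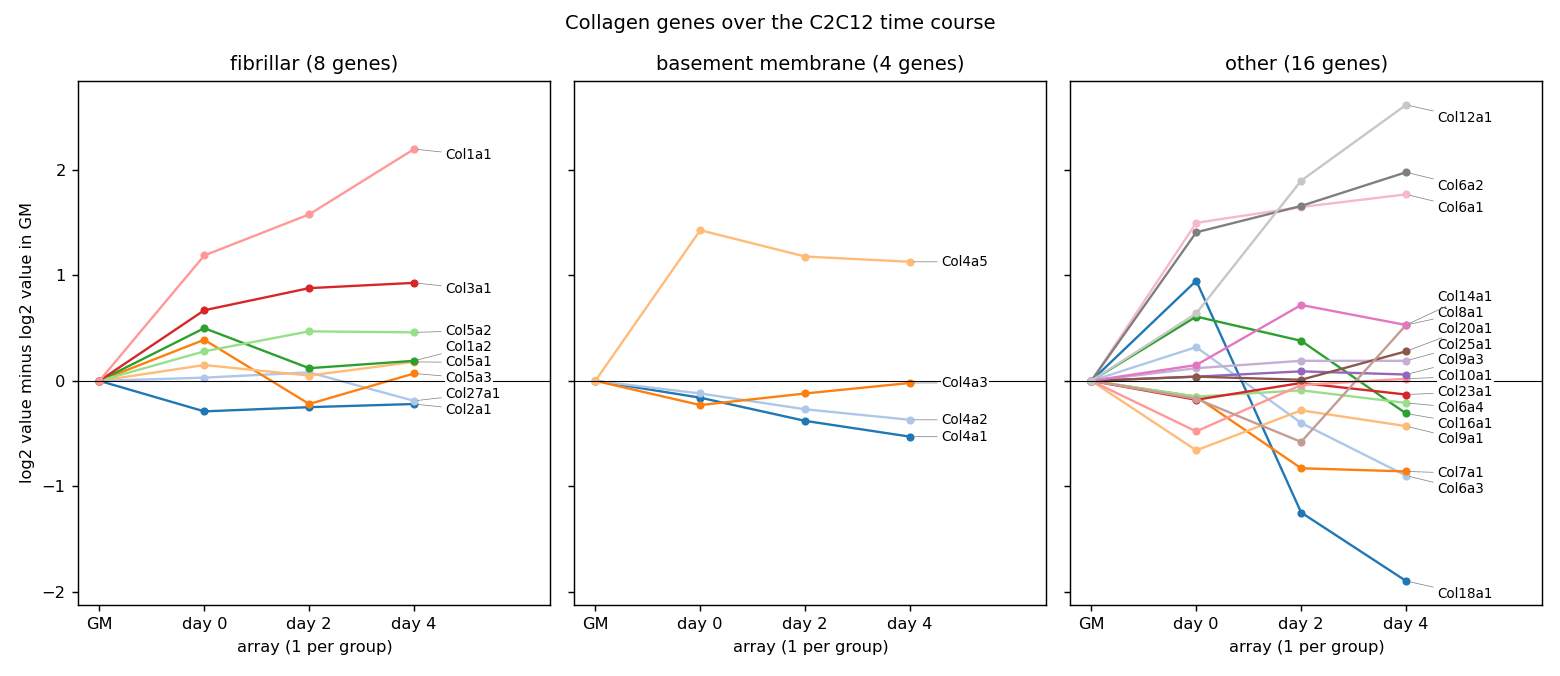
Log2 value minus the value in GM (y axis) on the GM, day 0, day 2 and day 4 arrays (x axis, 1 array per point) for the 28 collagens above the filter, in 3 panels by class, each line 1 gene. Col1a1, Col6a1, Col6a2 and Col12a1 lie well above their GM value at day 4, Col18a1 lies highest at day 0 and far below GM at day 4, and most other lines stay near 0.

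The promoter windows of 5 genes are shown because these genes lie near each other in 2 places of the genome, where neighbours can be set side by side, and were taken from RefSeq (GRCm38.p6). Col6a1 and Col6a2 are neighbours on chromosome 10 with 2 annotated genes between them and differed alike between arrays, Col18a1 lies 6 annotated genes beyond Col6a1 and differed otherwise, and Col4a5 and Col4a6 stand head to head on the X chromosome. Each window holds 250 bases before the start site, shortened to 201 bases for Col4a5 and 231 for Col4a6 so as to end before the annotated gene. Capitals mark E-boxes (CANNTG on either strand), the motif of the myogenic helix-loop-helix factors. Sequences run 5′ to 3′.
Col6a1 (chr10:76726045-76726294, minus strand): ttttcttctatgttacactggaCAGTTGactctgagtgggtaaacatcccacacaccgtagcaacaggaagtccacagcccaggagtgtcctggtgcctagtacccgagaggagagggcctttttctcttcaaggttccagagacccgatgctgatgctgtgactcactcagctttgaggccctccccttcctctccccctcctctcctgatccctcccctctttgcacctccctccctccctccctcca
Col6a2 (chr10:76623631-76623880, minus strand): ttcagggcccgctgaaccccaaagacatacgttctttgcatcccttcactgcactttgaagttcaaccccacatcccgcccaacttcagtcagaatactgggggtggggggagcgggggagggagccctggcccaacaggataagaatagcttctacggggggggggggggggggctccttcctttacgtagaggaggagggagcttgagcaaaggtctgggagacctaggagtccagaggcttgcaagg
Col18a1 (chr10:77166531-77166780, minus strand): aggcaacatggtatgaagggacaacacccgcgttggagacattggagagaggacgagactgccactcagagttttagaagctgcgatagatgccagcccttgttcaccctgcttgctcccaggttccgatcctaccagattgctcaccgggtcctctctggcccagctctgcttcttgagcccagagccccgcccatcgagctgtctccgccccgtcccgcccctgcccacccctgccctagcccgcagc
Col4a5 (chrX:141475169-141475369, plus strand): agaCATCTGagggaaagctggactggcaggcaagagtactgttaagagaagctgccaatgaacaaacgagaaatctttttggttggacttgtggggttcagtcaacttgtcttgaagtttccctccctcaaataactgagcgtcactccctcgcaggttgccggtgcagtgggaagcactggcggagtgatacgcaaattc
Col4a6 (chrX:141474096-141474326, minus strand): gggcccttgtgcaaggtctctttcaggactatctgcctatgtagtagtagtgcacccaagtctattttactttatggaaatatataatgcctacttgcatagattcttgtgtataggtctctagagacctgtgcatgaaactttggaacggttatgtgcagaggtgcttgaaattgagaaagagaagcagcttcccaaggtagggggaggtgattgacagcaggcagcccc

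The windows of Col6a1 and Col4a5 held 1 E-box each, and those of Col6a2, Col18a1 and Col4a6 none. Searched over the full 250 bases in each of the 32851 windows of the table, the shortened ones included, 66.2% held an E-box, beside 18 of 36 windows of 33 collagen genes. The core of the published Rp58 motif, ACATCTG on either strand, contains an E-box and was found in 3.71% of all windows and in 2 of the 36 collagen windows, those of Col3a1 and Col4a5, where it covers the E-box marked above. These matches describe the letters of the windows and say nothing of binding.

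Among the fibrillar collagens 1 chain spanned over 2-fold and stood higher on each later array, and the other 7 above the filter spanned less. Col1a1, the alpha-1 chain of type I, read 9.64 in GM, 10.83 at day 0, 11.22 at day 2 and 11.84 at day 4. The difference was 1.19 for day 0 minus GM and 1.01 for day 4 minus day 0. On the probe sets used, Col1a1 was the only fibrillar gene at least 2-fold apart in any of the 4 time-course comparisons. Its other probe set gave 0.34 for day 0 minus GM and 1.05 for day 4 minus day 0, so the size of the earlier step depended on the probe set.

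Col1a2, whose product joins the Col1a1 chain in type I collagen, did not follow it. It read 13.33 in GM, 13.83 at day 0, 13.45 at day 2 and 13.52 at day 4, a difference of 0.50 for day 0 minus GM and -0.31 for day 4 minus day 0. The Col1a1 difference exceeded that of Col1a2 by 0.69 at day 0 against GM and by 1.32 at day 4 against day 0. The other 2 probe sets of Col1a2 gave -0.56 and -0.40 for day 4 minus day 0, the same sign as the one used. For day 2 minus day 0 they gave -0.93 and -1.10, the latter dim at day 2, where the one used gave -0.38, so the size of that step depended on the probe set.

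Col3a1, the type III chain, read 13.73 in GM, 14.40 at day 0, 14.61 at day 2 and 14.66 at day 4, close to the highest values of those arrays, 14.92 to 15.09. Its less bright probe set read 10.65, 12.17, 12.23 and 12.53 on the same arrays and gave 1.52 for day 0 minus GM, where the bright one gave 0.66. Whether the bright probe set neared its upper limit was not tested. Both probe sets put most of the difference between GM and day 0, with 0.26 and 0.36 for day 4 minus day 0.

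Type V chains, which help to start and to limit fibrils, spanned at most 0.61 on the probe sets used. Col5a1 spanned 0.18 over the course and Col5a2, which neighbours Col3a1 on chromosome 1, spanned 0.47, with 0.69 for day 4 minus day 0 on its less bright probe set and 0.18 on the bright one. Col5a3 differed by 0.39 for day 0 minus GM and by -0.61 for day 2 minus day 0. For Col5a1 the other 2 probe sets gave 0.57 and 0.66 for day 4 minus day 2, where the one used gave 0.13. Col2a1, the cartilage chain, and Col27a1, a further fibrillar chain, spanned 0.29 and 0.27.

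**Figure D2:**
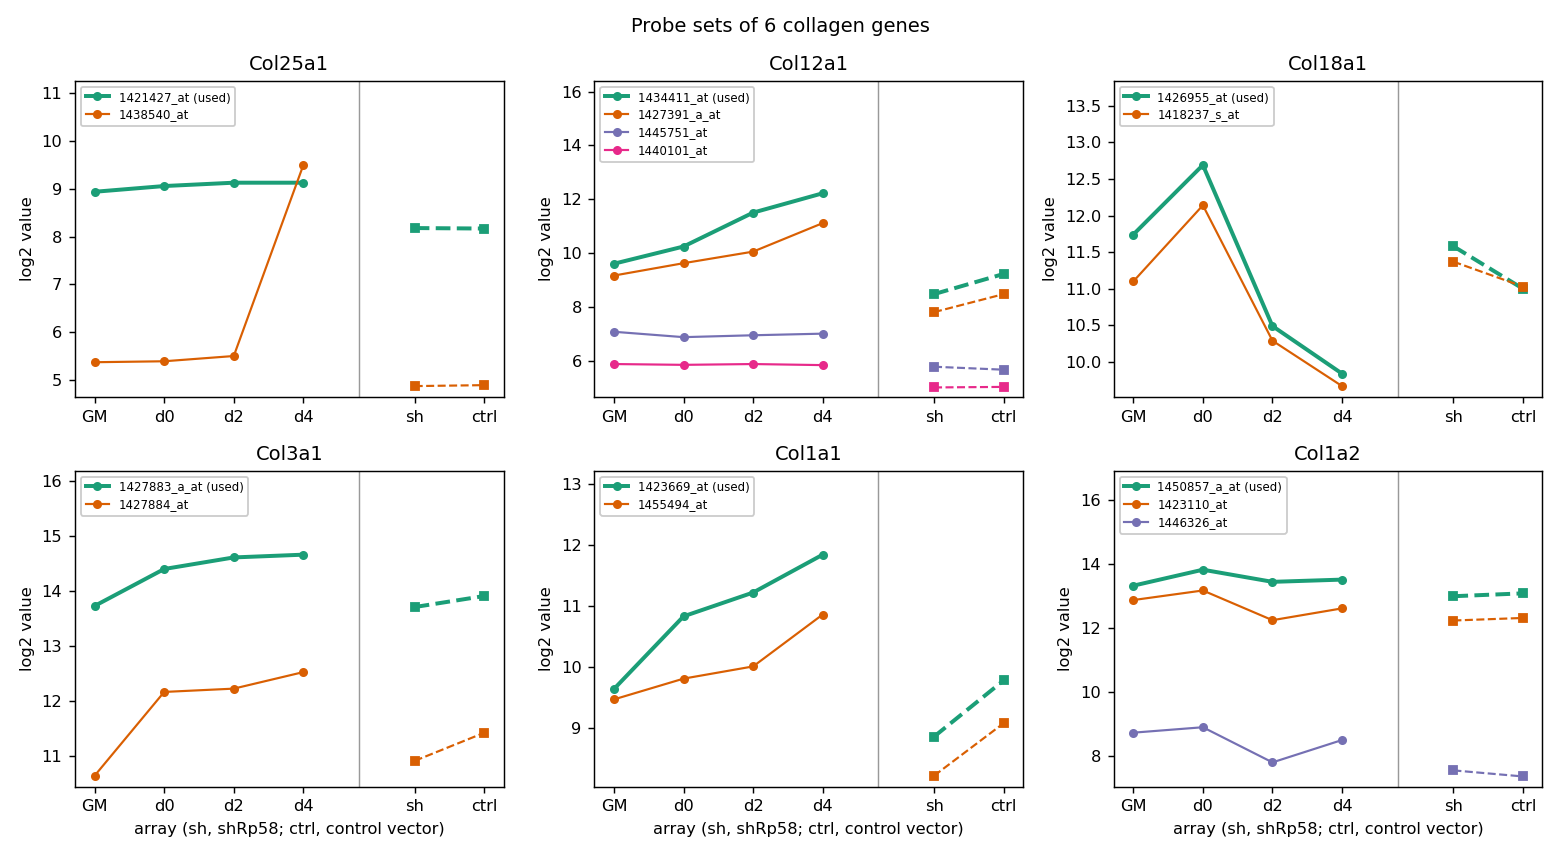
Log2 value (y axis) of each probe set of Col25a1, Col12a1, Col18a1, Col3a1, Col1a1 and Col1a2 on the 4 time-course arrays (circles) and, right of the grey line, on the shRp58 and control-vector arrays (squares); the thick line is the probe set that represented the gene, and the panels have different y ranges. For Col25a1 the thin line lies far below the thick one up to day 2 and just above it at day 4, while both probe sets of Col18a1 follow the same course.

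Basement membrane collagen was largely level, except for 1 chain. Col4a1 and Col4a2, which together form the common type IV network of most tissues, read 12.95 and 12.16 in GM, 12.79 and 12.04 at day 0, 12.57 and 11.89 at day 2, and 12.42 and 11.79 at day 4. Each stood lower on every later array, by small amounts, and for day 4 minus day 0 the differences were -0.37 and -0.26. The Col4a1 difference departed from that of Col4a2, its partner on chromosome 8, by no more than 0.12 in any of the 5 comparisons.

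Col4a5 stood apart from these. It read 8.78 in GM, 10.21 at day 0, 9.96 at day 2 and 9.91 at day 4, a difference of 1.44 for day 0 minus GM, and stayed within 0.30 of day 0 afterwards. Its other probe set gave 1.39 for the same step and -0.74 for day 4 minus day 0. Col4a6, its head-to-head neighbour, was dim on all 4 arrays, between 7.87 and 7.95, and differed by -0.05 for day 0 minus GM, a sign that turned under loess normalization. Col4a3, a chain of kidney and lung basement membranes, spanned 0.23, with its other probe set dim.

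The genes that differed most were among the other collagens. Col12a1, a FACIT chain found where fibrils bear load, read 9.60 in GM, 10.24 at day 0, 11.50 at day 2 and 12.22 at day 4. Col12a1 stood 0.65 higher at day 0 than in GM, 1.26 higher at day 2 than at day 0 and 0.73 higher at day 4 than at day 2, so that its span of 2.63 was spread over all steps. A less bright probe set gave 0.46, 0.43 and 1.06 for these steps, while its other 2 probe sets were dim and level.

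Col18a1 had the widest span of any collagen here, 2.85. Its values were 11.74 in GM, 12.69 at day 0, 10.49 at day 2 and 9.84 at day 4. The gene stood 0.95 higher at day 0 than in GM, and then differed from day 0 by -2.19 at day 2 and by -2.85 at day 4, 7.20-fold in size. The other probe set gave 1.04, -1.85 and -2.47 for these comparisons, so both showed the peak at day 0. Col15a1, the only other member of its subgroup, was dim on all 4 arrays, between 7.78 and 8.04.

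Type VI collagen is assembled from the products of Col6a1, Col6a2 and a further chain, usually that of Col6a3, and the 3 genes did not keep step. Col6a1 read 10.76 in GM, 12.26 at day 0, 12.41 at day 2 and 12.53 at day 4, and Col6a2 read 10.52, 11.93, 12.18 and 12.50. Both thus had most of their difference between GM and day 0, 1.49 and 1.41, and stayed high. Col6a3 read 13.05 in GM, 13.37 at day 0, 12.65 at day 2 and 12.15 at day 4, a difference of -1.22 for day 4 minus day 0. For that comparison the Col6a1 and Col6a2 differences exceeded that of Col6a3 by 1.49 and 1.78. The less bright probe set of Col6a2 gave 0.82 for day 0 minus GM. Col6a4 spanned 0.20.

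Of the remaining members above the filter, Col8a1 was the only one past 2-fold on the probe set used. Col8a1, a short chain of network-forming collagen, read 11.00 in GM, 10.83 at day 0, 10.42 at day 2 and 11.53 at day 4, and its 3 probe sets gave 1.10, 0.84 and 0.89 for day 4 minus day 2. Col16a1, a FACIT chain, peaked at 9.47 at day 0 and read 8.55 at day 4, a difference of -0.92. Col7a1, the anchoring fibril chain of skin, differed by -0.68 for day 2 minus day 0, and Col9a1, a cartilage FACIT chain, by -0.67 for day 0 minus GM. The FACIT chain Col14a1 and Col10a1, a chain of hypertrophic cartilage, were each above the median on only 1 time-course array, so their differences of 0.57 for day 2 minus day 0 and -0.48 for day 0 minus GM rest on dim values. With dim values set to the array median these came to 0.09 and -0.01. Col9a3, Col20a1, Col23a1 and Col25a1 spanned between 0.08 and 0.28. Col20a1 too was above the median on only 1 time-course array.

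The flat value of Col25a1 rested on the choice of probe set. Col25a1 encodes a membrane collagen that, in mice, muscle needs for its innervation by motor axons. The probe set that was brightest over the 6 arrays, and therefore used, read 8.94 in GM, 9.06 at day 0, 9.13 at day 2 and 9.13 at day 4. The other read 5.37 in GM, 5.39 at day 0, 5.50 at day 2 and 9.50 at day 4. This probe set was dim on the first 3 of these arrays and on both stable-line arrays, so its differences have no exact size. As deposited, with no floor, its 4.00 for day 4 minus day 2 ranked 1 of 45101 probe sets and its 4.11 for day 4 minus day 0 ranked 25. With dim values set to the array median the differences were 1.22 and 1.23. The probe set was singled out after its values were seen, and which of the Col25a1 transcripts each probe set reads was not analysed here.

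Step by step, the count of collagens at least 2-fold apart was highest between GM and day 0. For day 0 minus GM, 4 of 28 were at least 2-fold higher, Col6a1, Col4a5, Col6a2 and Col1a1, and 0 lower, where 3.11% of all genes were higher and 0.326% lower, 3.43% in all. The medians were 0.33 for fibrillar, -0.14 for basement membrane and 0.08 for other collagens, beside 0.12 for all genes, and 18 of 28 collagens lay above 0 (64.3%), beside 63.5% of all genes. Quantile normalization lowered the difference of all genes in this comparison by a median of 0.18, and relative to that scaling the 4 genes stood at 1.31, 1.32, 1.21 and 1.0. Under it and under loess normalization the small differences of Col5a1 and Col27a1, 0.16 and 0.03, turned negative.

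For day 2 minus day 0, 1 of 28 collagens was at least 2-fold higher (Col12a1) and 1 lower (Col18a1), where 2.83% of all genes were higher and 3.15% lower, 5.98% in all. These shares, 3.57% each, were near those of all genes, and the other 26 collagens lay inside the central 95% of all genes, -1.12 to 1.07. The class medians were 0.04 for fibrillar, -0.19 for basement membrane and 0.07 for other collagens, beside -0.02 for all genes.

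For day 4 minus day 2, 1 of 28 was at least 2-fold higher (Col8a1) and 0 lower, where 0.848% of all genes were higher and 0.84% lower, 1.69% in all. The class medians were 0.06 for fibrillar, -0.08 for basement membrane and -0.03 for other collagens, beside -0.04 for all genes. Col12a1 (0.73) and Col1a1 (0.62) lay just above the central 95% of all genes, which ended at 0.61. For day 4 minus day 0, which shares its arrays with both shorter steps, 2 of 28 were at least 2-fold higher (Col12a1 and Col1a1) and 2 lower (Col18a1 and Col6a3), where 4.04% of all genes were higher and 6.04% lower, 10.1% in all. The medians were 0.05 for fibrillar, -0.28 for basement membrane and 0.15 for other collagens, beside -0.06 for all genes.

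**Figure D3:**
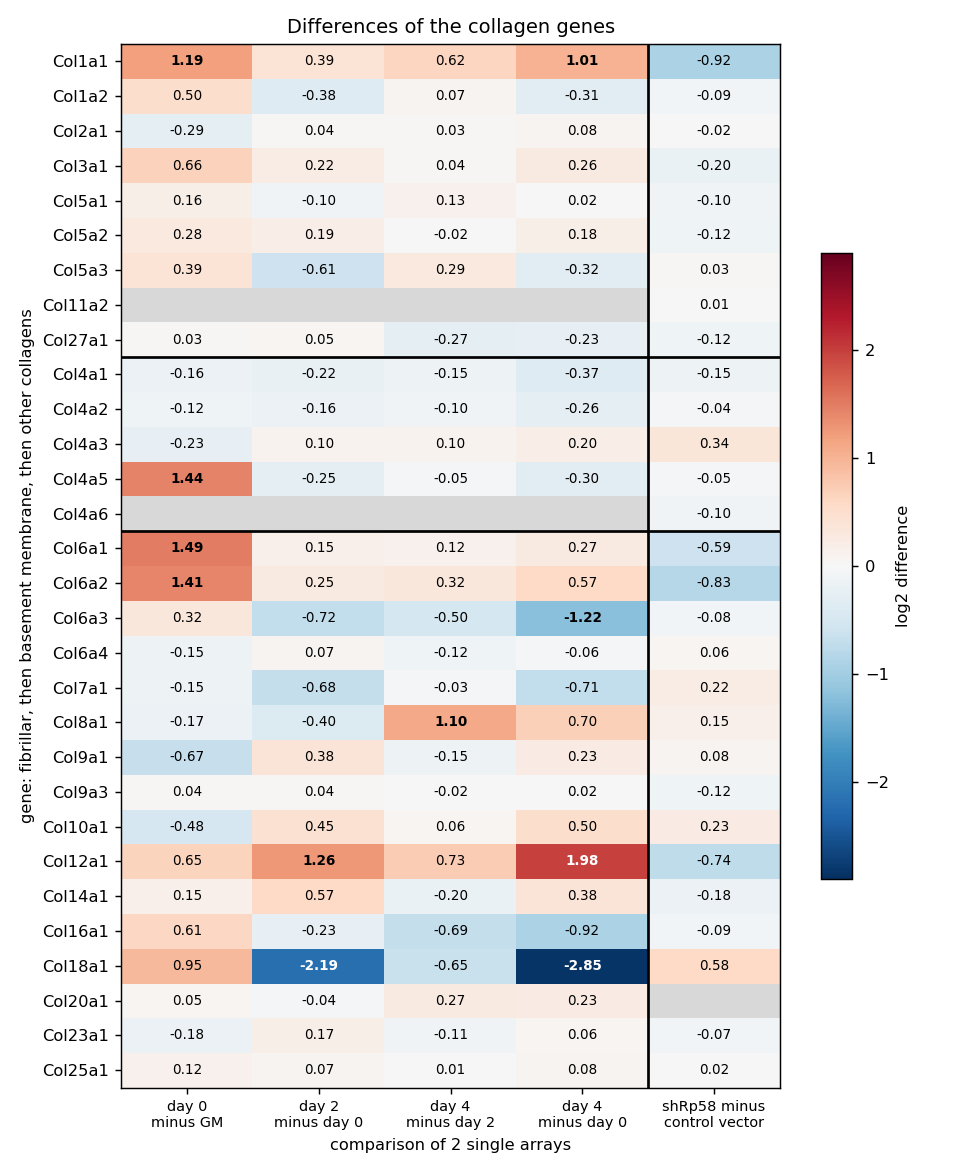
Log2 differences between single arrays (colour and number, bold from 1 in size upward) for each collagen above the filter (rows, in 3 classes) in the 4 time-course comparisons and, right of the vertical line, between the stable lines; grey cells are genes under the filter of that set. The bold cells are few and lie in Col1a1, Col4a5, Col6a1, Col6a2, Col6a3, Col8a1, Col12a1 and Col18a1, and the shRp58 column holds none.

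The comparison of the stable lines asks how collagen genes differed at day 0 between cells with the Rp58 hairpin and control cells. Of 29 collagens, 0 were at least 2-fold higher or lower, where 0.0505% of all genes were higher and 0.657% lower, 0.707% in all. The medians were -0.10 for 9 fibrillar, -0.05 for 5 basement membrane and -0.07 for 15 other collagens, beside -0.01 for all genes, and 10 of 29 lay above 0 (34.5%), beside 46.2% of all genes. Outside the central 95% of all genes, -0.56 to 0.47, were Col1a1, Col6a2, Col12a1 and Col6a1 below and Col18a1 above.

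Col1a1 read 8.86 in shRp58 cells and 9.78 in control-vector cells, a difference of -0.92, with -0.86 on its other probe set. Col6a2 read 10.67 in shRp58 cells and 11.50 in control-vector cells (-0.83), and Col6a1 read 11.32 in shRp58 cells and 11.92 in control-vector cells (-0.59). These 3 genes were thus lower with the hairpin, while their partner chains Col1a2 and Col6a3 differed by only -0.09 and -0.08. Col12a1 read 8.47 in shRp58 cells and 9.22 in control-vector cells, a difference of -0.74, and -0.66 on its less bright probe set. Col18a1 read 11.58 in shRp58 cells and 11.00 in control-vector cells, a difference of 0.58, and 0.34 on the other probe set. Neither the sign of these 5 differences nor their place under 2-fold depended on centring, quantile or loess normalization.

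Among the rest, Col4a3 (0.34), Col10a1 (0.23) and Col7a1 (0.22) had the highest differences after Col18a1, and Col3a1 (-0.20), Col14a1 (-0.18) and Col4a1 (-0.15) the lowest after those named. For Col3a1 the less bright probe set gave -0.51. Col4a5, 1.44 higher at day 0 than in GM in parental cells, read 8.96 in shRp58 cells and 9.01 in control-vector cells. Its difference was -0.05, and -0.23 on its other probe set, beside -0.04 for Col4a2 and -0.10 for Col4a6. Col5a3 (0.03), Col11a2 (0.01) and Col25a1 (0.02) were level, and the second probe set of Col25a1 was dim on both arrays, at 4.87 and 4.89.

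The 5 collagens that stood outside the range of most genes between the lines had the opposite sign for day 4 minus day 0. They were picked by their difference between the lines, and the share among all genes outside that range was not counted. For day 0 minus GM, Col1a1, Col6a1, Col6a2 and Col12a1 had the opposite sign. Col18a1 had the same sign there, at 0.95, as between the lines, at 0.58. Across the 27 collagens above the filter in both sets, shRp58 minus control vector and day 4 minus day 0, which share no array, correlated at Pearson r = -0.620 and Spearman rho = -0.347. Across 11580 genes the values were -0.682 and -0.457. Genes are not independent replicates, and the share of collagens with opposite signs was below that of all genes here: 15 of 27 (55.6%) had opposite signs, beside 61.9% of all genes. For day 0 minus GM the count was 20 of 27 (74.1%), beside 65.6% of all genes.

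**Figure D4:**
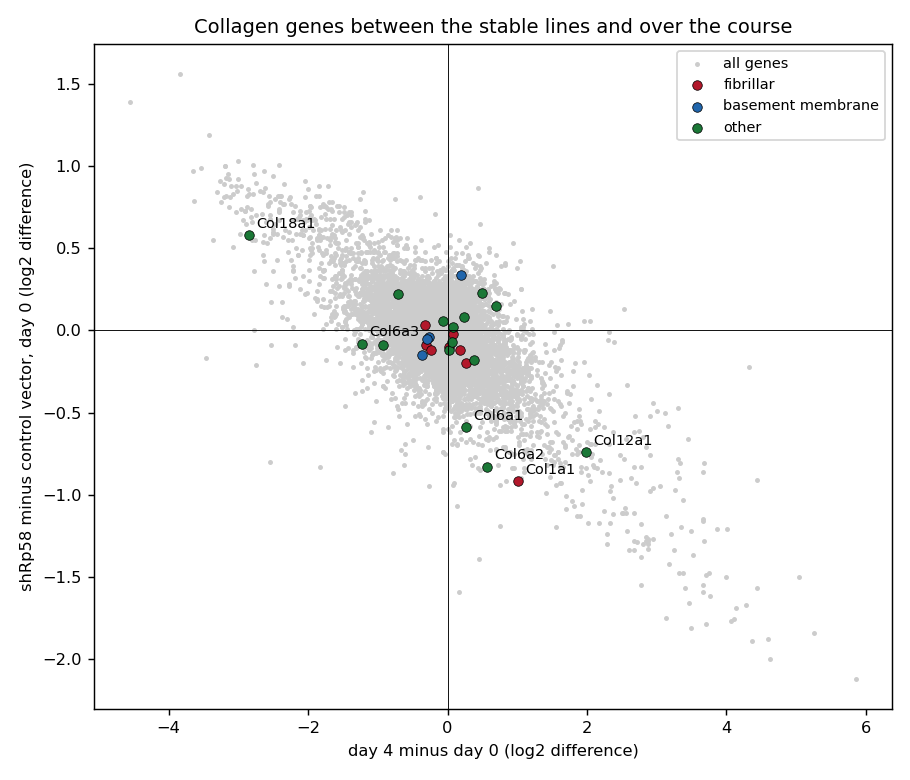
Log2 difference of shRp58 minus control vector (y axis) against that of day 4 minus day 0 (x axis) for 11580 genes (grey) and 27 collagens (coloured by class); each point is 1 gene and each difference is between 2 single arrays. Col1a1, Col6a1, Col6a2 and Col12a1 lie at the lower right and Col18a1 at the upper left, inside the cloud of all genes, and most collagens lie near the origin.

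The muscle markers also differed between the stable lines: 7 of 7 were lower in shRp58 cells, Myh3 (-1.30) and Ckm (-1.27) at least 2-fold, with a median of -0.72. The 29 collagens had a median of -0.08 there, with 10 above 0. For day 0 minus GM, Myh3, Acta1 (2.55), Myog (2.28) and Ckm (2.13) were at least 2-fold higher. Myh3 was dim in GM, and with dim values set to the array median its difference was 4.0. For day 4 minus day 0, Ckm (2.94), Myh3 (2.28), Acta1 (1.16) and Myog (1.14) were at least 2-fold higher. Myf5 was at least 2-fold lower there (-1.29), the only 1 of the 7 markers below 0. Their summed linear value was 21294 in GM, 53060 at day 0, 103531 at day 2 and 118039 at day 4, and 34847 in shRp58 cells and 55703 in control-vector cells. Of 6 genes listed as fibroblast markers, Thy1, Tcf21 and Pi16 were dim on every array, and Dpt, Pdgfra and Tcf4 were not. Tcf4 was the brightest of the 6 on every array, with 12.13 at day 4 beside 9.46 for Pdgfra and 9.04 for Dpt. A sum over the list therefore mainly follows Tcf4. Tcf4 is not read as a fibroblast marker here, so the sum is no measure of fibroblasts. The summed linear value of the 6 was 2699 in GM, 4238 at day 0, 6175 at day 2 and 6192 at day 4, and 1678 in shRp58 cells and 2385 in control-vector cells. Dpt was 1.01 higher at day 4 than at day 0 and differed by -0.52 between shRp58 and control-vector cells, while Tcf4 gave 0.70 and -0.65 and Pdgfra -0.12 and -0.12 for these comparisons. Dpt was dim at day 0, and with dim values set to the array median its difference for day 4 minus day 0 was 0.78. Above the filter in the time course were also 2 of 6 cartilage markers (Sox9 and Matn3), 1 of 5 endothelial (Kdr), 2 of 4 leukocyte (Cd3e and Csf1r), 1 of 2 measured glial (Sox10) and 4 of 5 smooth muscle markers (Acta2, Tagln, Smtn and Cnn1). The other members of these lists were dim, Acan, Pecam1, Cdh5, Ptprc and Myh11 among them. Tagln and Cnn1, genes of smooth muscle, differed by -1.94 and -1.51 for day 0 minus GM, and Tagln by -0.84 for shRp58 minus control vector. Cnn1 was dim at day 0, and with dim values set to the array median its difference was -0.94, under 2-fold. The part of other cells or of the degree of differentiation in the collagen differences was not tested, and in cultures measured in bulk fewer cells of a type and less RNA per cell cannot be told apart.

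Of 17 genes above the filter that were listed for folding, modification and export of collagen chains, 0 were 2-fold apart in any time-course comparison. The list includes Creb3l1, a transcription factor. Among all genes 1.69% to 10.1% were 2-fold apart, so that 0 is near the share of all genes. P4ha1 for day 0 minus GM and P3h3 for day 2 minus day 0 came closest, each at 0.95. P3h3 was dim at day 0, and with dim values set to the array median its difference was 0.75. The list had medians of 0.31 for day 0 minus GM, -0.06 for day 2 minus day 0 and -0.16 for day 4 minus day 2, and 0.14 for the first of these under quantile normalization. P4ha1, a prolyl hydroxylase subunit, read 10.67 in GM, 11.63 at day 0, 11.38 at day 2 and 11.66 at day 4. The collagen chaperone Serpinh1 read 13.47 in GM, 13.74 at day 0, 13.61 at day 2 and 13.80 at day 4, and the lysyl hydroxylase Plod2 read 11.72, 11.96, 12.22 and 11.92 on these arrays. Neither reached 1.5-fold between any successive arrays. In shRp58 cells against control cells, 4 of 16 lay above 0, beside 46.2% of all genes, with a median of -0.08. That count depended on the scaling: it was 7 of 16 after quantile and 6 of 16 after loess normalization, each with a median of -0.05.

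Among 8 genes of procollagen processing and crosslinking, Loxl1, a lysyl oxidase relative, differed by 1.12 for day 0 minus GM, a value under 2-fold after quantile or loess normalization, and Pcolce2, an enhancer of propeptide removal, differed by -2.15 for day 2 minus day 0. Pcolce2 read 11.65 in GM, 11.60 at day 0, 9.45 at day 2 and 9.24 at day 4, and 10.67 in shRp58 cells and 10.10 in control-vector cells. Like Col18a1 it was lower after day 0 and higher with the hairpin (0.57), but without the higher value at day 0. Pcolce, of the same family, differed by -0.42 for day 2 minus day 0. The crosslinking enzyme Lox differed by 0.53 for day 0 minus GM and the collagen-binding Sparc by 0.31.

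Among turnover genes Mmp2, a gelatinase, read 10.38 in GM, 11.60 at day 0, 13.26 at day 2 and 13.05 at day 4. The collagen uptake receptor Mrc2 was 1.47 higher at day 0 than in GM. Fap, a membrane protease, differed by 2.00 for day 0 minus GM and differed by -1.96 for day 4 minus day 2, but it was dim in GM and at day 4 and passed the filter only through day 0 and day 2. With dim values set to the array median its differences were 0.00 and -0.74. Adam12, a metalloprotease known from myoblasts, differed by 1.28 for day 2 minus day 0. Of 11 turnover genes 3 were at least 2-fold higher for day 0 minus GM, or 2 without the dim values of Fap, beside 3.11% of all genes. For day 2 minus day 0 the count was 2, beside 2.83%, and for day 4 minus day 2 it was 0, beside 0.848%. With the hairpin 3 of 10 lay above 0, beside 46.2% of all genes, Mrc2 lowest at -0.60.

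Of 4 collagen receptors above the filter in the time course, Itga10, an integrin subunit, was 1.17 higher at day 2 than at day 0, and Ddr2, a receptor kinase for fibrillar collagen, differed by -0.68 and then by 0.80 for day 4 minus day 2. All 11 partners of type IV in the basement membrane were above 0 for day 0 minus GM (median 0.40), or 10 of 11 after quantile normalization, where 63.5% of all genes were above 0 with a median of 0.12. Among them Lama4 was dim on both arrays, and its 0.21 came to -0.01 with dim values set to the array median. Of the 4 type IV chains above the filter, Col4a1, Col4a2 and Col4a3 were below 0 for day 0 minus GM, while Col4a5 stood at 1.44. Nid1, a linker of laminin and type IV collagen, read 13.17 in GM, 13.40 at day 0, 13.45 at day 2 and 11.98 at day 4, and was thus at least 2-fold lower at the last step (-1.47). Its paralogue Nid2 went the other way, at 0.42 for that step, and had the lowest difference of this list with the hairpin, 8.77 in shRp58 cells and 9.71 in control-vector cells (-0.94).

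**Figure D5:**
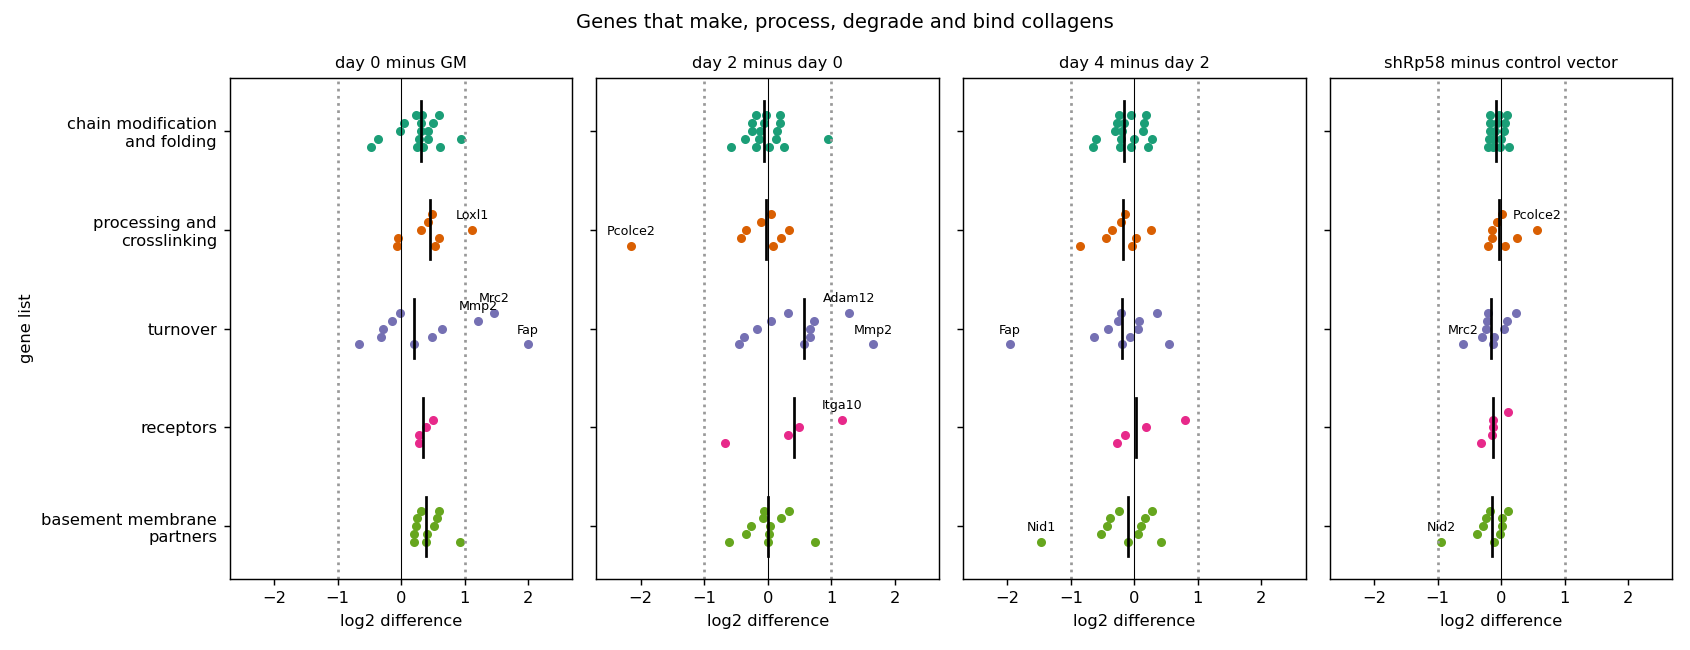
Log2 differences (x axis) of genes in 5 lists (rows) in 3 time-course steps and between shRp58 and control-vector cells; each point is 1 gene above the filter, black bars are list medians and dotted lines mark 2-fold. Folding genes stay between the dotted lines in each panel, and the labelled points outside them are Loxl1, Mrc2, Mmp2 and Fap at day 0, Pcolce2, Adam12, Mmp2 and Itga10 at day 2, and Fap and Nid1 at day 4. Fap is dim in GM and at day 4.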

How the data were processed

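RNA of 6 C2C12 cultures, 1 per group, was hybridised, as 10 ug of cRNA, to Affymetrix mouse arrays. The deposited values are log2 and come from RMA, which the authors ran according to the series' design text; its software is not given in the sources used here. Probe sets (45101) were named from the platform annotation: 34958 had 1 gene, 932 had several and 9211 had none there. All 42 collagen Entrez IDs carried the same symbol in RefSeq (GRCm38.p6). Differences of log2 values were taken between single arrays within a set and counted at 2-fold; no test was possible. The array number limits precision. Alternatives were centring, quantile and loess normalization (span 0.3), other filters, other probe-set rules, 1.5-fold, dim values set to the array median (chosen after seeing the data), and Col15a1 and Col18a1 counted with the basement membrane class. Genes named were every collagen past 2-fold, the highest and lowest of each class, chain partners and neighbours, biosynthesis, turnover, receptor and partner genes past 2-fold and Serpinh1, P4ha1, Lox, Plod2 and Sparc; cell markers were named apart from this rule, and others were named after their values were seen. Members, classes and lists were chosen with earlier results of these data known. Scripts (Python 3.11.15, pandas 2.3.3, statsmodels 0.14.6) were tested on simulated data.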

Additional observations from a re-analysis of the deposited data

How the results depend on the processing

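Of 90 alternative counts of collagens past 2-fold, 82 were within 1.5 times the reported count. The exceptions were 1.5-fold in place of 2-fold, which gave 8 higher and 1 lower for day 0 minus GM, 4 lower for day 2 minus day 0, 3 higher and 2 lower for day 4 minus day 2, 4 lower for day 4 minus day 0 and 4 lower for shRp58 minus control vector, and the mean of all probe sets, which gave 0 higher for day 2 minus day 0, without Col12a1 (0.45). Equal counts hid exchanged genes under that mean: Col3a1 (1.09) stood in place of Col1a1 (0.77) for day 0 minus GM, and Col25a1 in place of Col8a1 (0.95) for day 4 minus day 2 and of Col12a1 (0.90) for day 4 minus day 0. The share of all genes past 1.5-fold was not counted, so the counts at 1.5-fold cannot be read against it. Of 130 alternative class medians, 114 stayed within 0.1. Those that moved further were, with the mean of all probe sets, other collagens at 0.27 (day 0 minus GM), -0.07 (day 2 minus day 0), 0.09 (day 4 minus day 2), 0.32 (day 4 minus day 0) and 0.06 (shRp58 minus control vector) and fibrillar collagens at 0.22 (day 4 minus day 2) and 0.19 (day 4 minus day 0). For day 0 minus GM, quantile normalization gave 0.14 for fibrillar and -0.33 for basement membrane collagens, and loess gave 0.16 and -0.31; for day 2 minus day 0 loess gave -0.08 for basement membrane collagens. Without the filter, basement membrane collagens stood at -0.15 (day 4 minus day 0) and other collagens at 0.04 (shRp58 minus control vector). Dim values set to the array median, a choice made after seeing the data, gave 0.01 for other collagens (day 4 minus day 0). Probe sets named with digits and _at alone gave 0.21 for fibrillar collagens (day 4 minus day 2). With the mean of all probe sets the filter was applied to the averages. The medians of other collagens are then over fewer genes, without Col9a3 and Col14a1 among others, so changed membership and changed values are mixed in them. The causes of the other moves were not tested. No member crossed 2-fold under centring, quantile or loess normalization. No paired analysis was possible because each group held 1 array, and for the same reason no replicate could be left out. No detection calls were used, so dim values limit what can be said of the 14 collagens dim on every time-course array. The same limit holds in part for Col6a4, Col9a3, Col10a1, Col14a1, Col20a1 and Col23a1, which were dim on some of these arrays.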

Other observations

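Several collagens that stayed dim on all 4 time-course arrays still differed between them, and their sizes are not exact. Col17a1, a hemidesmosome component of skin, read 6.35 in GM, 7.13 at day 0, 6.38 at day 2 and 5.81 at day 4, a course with its peak at day 0 like that of Col18a1 and Col16a1. Its difference of -1.31 for day 4 minus day 0 was past 2-fold but rests on dim values, and came to -0.01 with these set to the array median. Col8a2, partner chain of Col8a1 in type VIII collagen, read 6.32, 6.18, 6.49 and 6.95 on the same arrays, and was highest at day 4 as Col8a1 was. With dim values set to the array median, the Col8a2 difference for day 4 minus day 0 was -0.01, so a shared course cannot be read from them. Col26a1 read 7.26, 6.62, 6.74 and 7.20.

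Probe sets of 1 gene differed by amounts similar to the class medians. For the 13 collagens with at least 2 probe sets that reached the array median in the time course, the gap between the highest and the lowest difference had a median of 0.19 for day 0 minus GM, 0.21 for day 2 minus day 0, 0.26 for day 4 minus day 2, 0.38 for day 4 minus day 0 and 0.11 for shRp58 minus control vector. Signs were opposite within 3 of the 13 for day 0 minus GM, 1 for day 2 minus day 0, 2 for day 4 minus day 2 and 3 for shRp58 minus control vector. The gap reached 2-fold for 1 of them, Col25a1, at 3.99 for day 4 minus day 2 and 4.03 for day 4 minus day 0, both resting on dim values.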
